A study of Mus musculus with 30 samples.

Results

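The 2 mitochondrial transfer RNAs (tRNAs) that flank the small ribosomal RNA were followed here, mt-Tf, which carries phenylalanine, and mt-Tv, which carries valine. Every read whose whole sequence matched either transcript exactly in sense, after addition of the 3 bases CCA to its 3′ end, was counted, so that the members were 2 of the 22 mitochondrial tRNAs and 2 of the 6125 RNAs of the reference. The libraries were made from RNA of 15 to 50 nucleotides (nt) from the cortex of 6-month-old wildtype (WT) mice and of 5XFAD mice (AD), a transgenic model of Alzheimer’s disease on a C57BL6/J background, whose transgenes are driven by the neuronal Thy1 promoter. With PANDORA-seq, in which the RNA was treated with T4PNK and AlkB before library construction, 8 WT and 8 AD libraries were made, and with standard construction (traditional-seq) 7 WT and 7 AD libraries. PANDORA-seq files held 54926347 to 105876141 reads of 15 to 45 nt per library and traditional-seq files held 9370669 to 17053412 reads of 15 to 42 nt. Together the members had 1068 reads of mt-Tf and 326922 of mt-Tv in PANDORA-seq, in 188 and 878 distinct sequences, and 7792 and 226982 reads in traditional-seq, in 330 and 581 distinct sequences.

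In mammalian mitochondria, both strands are transcribed as long precursors in which tRNAs stand between the ribosomal and protein-coding genes, and cutting out the tRNAs releases their neighbours. The heavy-strand order is mt-Tf, mt-Rnr1 (12S rRNA), mt-Tv, mt-Rnr2 (16S rRNA), mt-Tl1 (a leucine tRNA), so that mt-Tv stands between the rRNAs and mt-Tf before the first of them. After cutting, the terminal CCA, to which the amino acid is attached, is added by an enzyme, and the adenosine at position 9 of many mitochondrial tRNAs is methylated to 1-methyladenosine, a base that stops or misleads reverse transcription and whose methyl group AlkB removes. T4PNK removes 3′ phosphates and adds 5′ phosphates, which makes fragments with such ends ligatable to the adaptors.

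On GRCm38, mt-Tf (ENSMUSG00000064336.1) lay at chrM:1-68 on the plus strand and mt-Tv (ENSMUSG00000064338.1) at chrM:1025-1093. Between mt-Tf and 12S (chrM:70-1024) stood 1 unannotated base, whereas mt-Tv adjoined both 12S and 16S (chrM:1094-2675) with none between. Both whole molecules are shown because all later positions count from their first base, with the added CCA in capitals.
mt-Tf: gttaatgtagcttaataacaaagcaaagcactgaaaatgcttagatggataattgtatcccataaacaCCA
mt-Tv: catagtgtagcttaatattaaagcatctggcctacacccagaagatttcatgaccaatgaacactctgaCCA
The molecules are 71 and 72 nt long with CCA, both with A at position 9, the anticodon at bases 33 to 35 and a 7-base anticodon loop at bases 31 to 37. Their longest shared run was 12 nt from base 6, shorter than the shortest read of 15 nt, so no read was assigned to both.

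Both tRNAs were seen less in PANDORA-seq than in traditional-seq, and mt-Tf far more so than mt-Tv. Levels are given in RPM, the reads of the tRNA per 1000000 reads of the library. The level of mt-Tf ranged from 0.331 to 1.51 with a median of 0.747 in the WT PANDORA-seq libraries and from 0.198 to 1.72 with a median of 0.672 in the AD libraries. The same tRNA ranged from 21.3 to 82.1 (median 47.7) in WT and from 22.5 to 59.3 (median 51.2) in AD traditional-seq libraries, so that no PANDORA-seq library reached the lowest traditional-seq library. For mt-Tv the range was 122 to 428 RPM (median 209) in WT and 82.3 to 518 (median 229) in AD PANDORA-seq libraries. In traditional-seq mt-Tv ranged from 743 to 1655 RPM (median 1317) in WT and from 453 to 2171 (median 1185) in AD libraries, and the protocols overlapped only at the highest PANDORA-seq and lowest traditional-seq libraries. RPM is a share of the library's reads. Fewer molecules, fewer molecules that could be captured and more reads of other RNAs cannot be told apart in these levels.

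On reads of 15 to 42 nt, the range that both protocols hold, the mean log2 RPM was 5.89 lower in PANDORA-seq for mt-Tf (−0.44 ± 0.92, SD, n = 16, against 5.46 ± 0.63, SD, n = 14), which is 59.5-fold. For mt-Tv it was 2.44 lower (7.81 ± 0.78 against 10.25 ± 0.61), which is 5.43-fold. Both differences had an adjusted p of 1.35e-05 in a two-sided permutation test of 100000 shuffles, the smallest the shuffles can give after Benjamini-Hochberg adjustment over 180 measures of the 22 tRNAs. Of these measures 50.6% were called lower in PANDORA-seq and 39.4% higher, so being called was common, and what set mt-Tf apart was size. Its difference was the lowest of the 22 tRNAs, which ranged from −5.89 to 2.48 log2 units with a median of −2.19, whereas mt-Tv ranked 11th from the lowest. In levels, mt-Tf ranked 22nd of 22 from the highest in PANDORA-seq and 19th in traditional-seq, and mt-Tv 8th and 4th. Scaled to reads that match any reference RNA instead of all reads, the mt-Tv difference was −0.40 log2 units and lost its call (adjusted p = 0.148), while mt-Tf stayed 3.85 lower. Matched reads made up 6.60 to 16.4% of a PANDORA-seq library and 41.9 to 56.5% of a traditional-seq library.

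The 2 tRNAs therefore stood in very different proportions. PANDORA-seq libraries held 194 to 423 mt-Tv reads for each mt-Tf read (median 312), and traditional-seq libraries 8.51 to 93.6 (median 27.96), without overlap. The log2 ratio was 8.25 ± 0.31 (SD, n = 16) against 4.80 ± 1.01 (SD, n = 14), a 10.96-fold difference with p = 1e-05, the smallest the 100000 shuffles of this permutation test can give, and this ratio was chosen for testing after the values were seen.

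**Figure D1:**
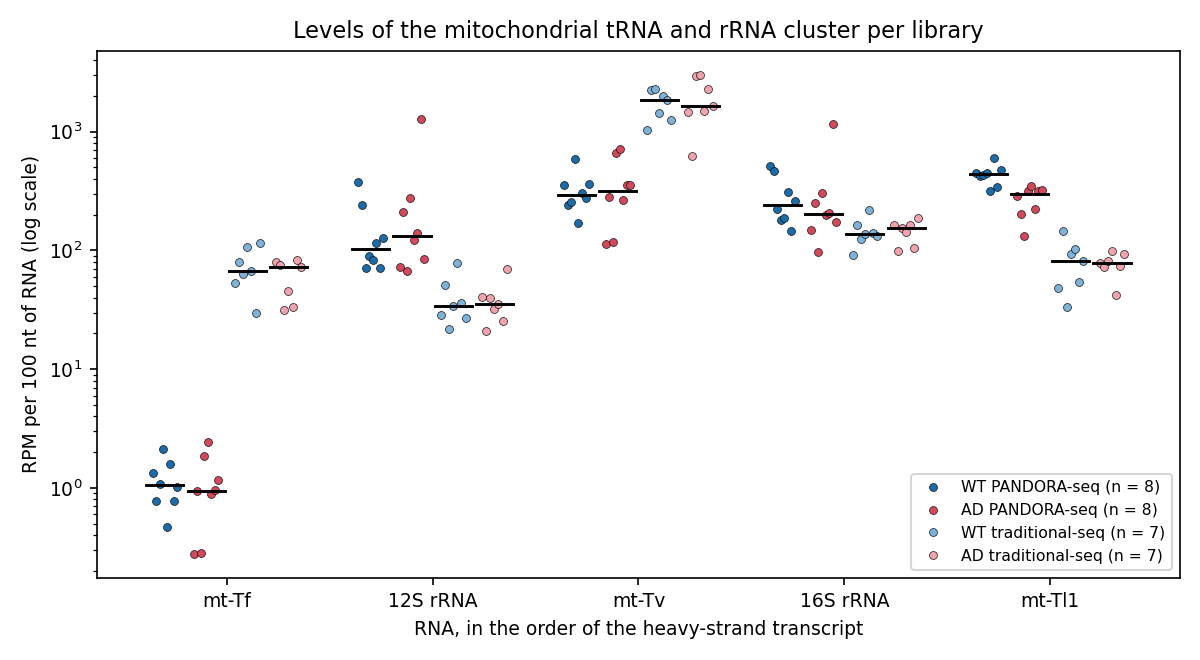
RPM per 100 nt of RNA (log scale) for mt-Tf, 12S, mt-Tv, 16S and mt-Tl1 in their genome order, with each point a library, coloured by genotype within each protocol. In PANDORA-seq the median of mt-Tf is 0.991 beside 119 for 12S, while in traditional-seq mt-Tv, with a median of 1738, is the highest of the 5.

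Relative to the neighbouring rRNAs, the shift was larger, because the rRNA reads moved the other way. Per nt of RNA, mt-Tf had 0.00656 reads for each 12S read in the median PANDORA-seq library (range 0.000752 to 0.0237) and 1.71 in the median traditional-seq library (0.800 to 4.27). For mt-Tv the ratio to 12S was 2.21 (0.278 to 6.62) against 43.3 (23.5 to 106), and that to 16S was 1.18 (0.305 to 3.60) against 10.9 (6.39 to 21.8). None of these 3 ratios overlapped between the protocols. On reads of 15 to 42 nt the mean log2 ratio was lower in PANDORA-seq by 7.90 for mt-Tf to 12S (239-fold), by 4.45 for mt-Tv to 12S (21.9-fold) and by 3.03 for mt-Tv to 16S (8.18-fold), each with an adjusted p of 1.35e-05. Of the 22 tRNAs, 19 were called lower relative to 12S and none higher, and 16 were called lower and 2 higher relative to 16S. The same rRNA reads divide all 22 tRNAs, so these counts share the shift of the rRNA and are not separate results. In RPM 14 of the 22 were called lower and 4 higher. The lowest ratios to rRNA came from AD PANDORA-seq replicate 7, whose 12S level of 12157 RPM and 16S level of 18383 RPM were the highest of all libraries. Leaving out any library kept the calls of mt-Tf and mt-Tv. On the far side of 16S, mt-Tl1 rose by 2.07 log2 RPM in PANDORA-seq (adjusted p = 1.35e-05) while its ratio to 16S, which it adjoins, rose by 1.47 (adjusted p = 5.14e-05) and its ratio to 12S differed by 0.06 (adjusted p = 0.883), so that the tRNAs around the rRNAs did not move as a group.

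The protocols also recovered different pieces of the same molecules. Reads were divided into 5′ fragments, which start at base 1, 3′ fragments with the complete CCA, 3′ fragments that end at the last encoded base or 1 or 2 added bases (no full CCA), and internal fragments. For both tRNAs, sequences are printed that were the most abundant of their kind in the protocol named, with anticodon bases and added bases of the CCA in capitals.
mt-Tf 1-32, 5′, PANDORA-seq: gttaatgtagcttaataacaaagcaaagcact
mt-Tf 51-70, no full CCA, PANDORA-seq: aattgtatcccataaacaCC
mt-Tf 51-71, full CCA, traditional-seq: aattgtatcccataaacaCCA
mt-Tf 38-53, internal, traditional-seq: tgcttagatggataat
mt-Tv 1-32, 5′, PANDORA-seq: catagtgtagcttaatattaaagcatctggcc
mt-Tv 3-34, internal, PANDORA-seq: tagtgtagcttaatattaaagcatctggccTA
mt-Tv 55-71, no full CCA, PANDORA-seq: caatgaacactctgaCC
mt-Tv 55-72, full CCA, traditional-seq: caatgaacactctgaCCA
mt-Tv 50-65, internal, traditional-seq: atgaccaatgaacact
Fragment mt-Tv 1-32 was found at 2.77 to 78.7 RPM (median 26.8) in all 16 PANDORA-seq libraries and in 5 of 14 traditional-seq libraries, with 6 reads in all. Conversely, mt-Tv 50-65 ranged from 25.9 to 425 RPM (median 79.999) in traditional-seq and had 19 reads in 7 of the PANDORA-seq libraries.

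For 5′ fragments the difference was nearly complete. In PANDORA-seq they made up 10.6 to 90.9% of mt-Tf reads (median 46.4%) and 2.42 to 28.7% of mt-Tv reads (median 19.0%). In traditional-seq the ranges were 0 to 1.09% (median 0.172%) and 0.00760 to 0.597% (median 0.0726%). Neither tRNA's ranges overlapped, although the mt-Tf share rested on 2 to 76 such reads per PANDORA-seq library. On reads of 15 to 42 nt the mean 5′ share was 46.8 ± 18.9% against 0.289 ± 0.355% for mt-Tf and 20.3 ± 6.96% against 0.129 ± 0.175% for mt-Tv (SD, n = 16 and 14, adjusted p = 1.35e-05 for both, permutation test). The 5′ share rose in 19 of the 22 mitochondrial tRNAs and fell in 2. Adding reads of at least 20 nt with 1 mismatch changed the pooled mt-Tv share from 0.0899 to 0.102% in traditional-seq and from 19.75 to 19.99% in PANDORA-seq.

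Fragments with the complete CCA showed the opposite. They made up 6.16 to 48.9% of mt-Tf reads (median 19.3%) and 16.04 to 48.7% of mt-Tv reads (median 34.1%) in traditional-seq. In PANDORA-seq mt-Tf had 0 such reads of 1068, which allows a share of up to 0.281%, and mt-Tv had 0.428 to 1.69% (median 0.610%). The share was called lower in PANDORA-seq for all 22 tRNAs, by 20.6 percentage points for mt-Tf and 32.0 for mt-Tv (adjusted p = 1.35e-05). The 3′ fragments without the full CCA rose, from 3.70 ± 1.77% to 25.02 ± 9.01% for mt-Tf (adjusted p = 1.35e-05) and from 14.7 ± 4.79% to 23.6 ± 10.2% for mt-Tv (adjusted p = 0.00242). Internal fragments of mt-Tf fell from 75.4 ± 12.8% to 28.2 ± 14.3% (adjusted p = 1.35e-05), and for mt-Tv they were 52.4 ± 14.2% and 55.3 ± 7.33% (adjusted p = 0.489). With each distinct sequence counted once, this mt-Tv internal share instead fell by 3.45 percentage points (adjusted p = 0.0044), and the share without the full CCA was 1.67 points higher (adjusted p = 0.0591).

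**Figure D2:**
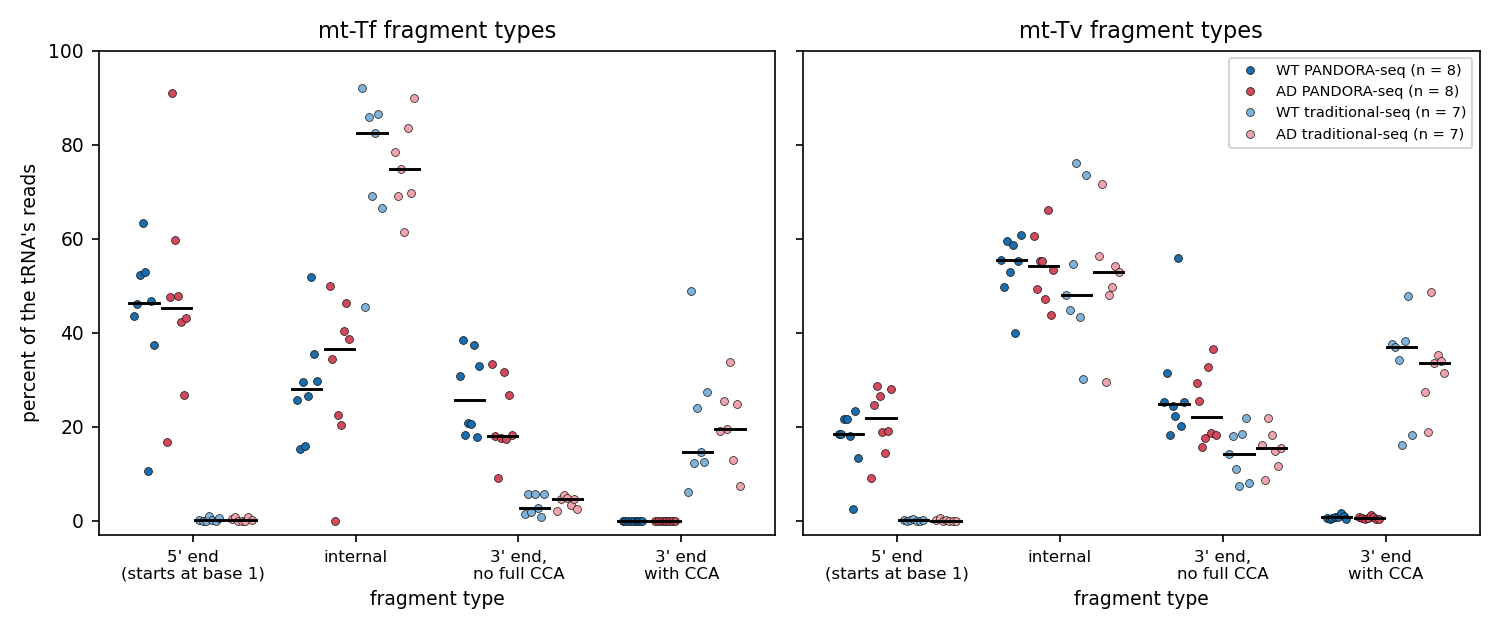
Share of the tRNA's reads (percent, all lengths) in each fragment type, for mt-Tf and mt-Tv in each group, with points for libraries and bars at the group median. The 5′ share is near 0 in all traditional-seq libraries, while the share with the complete CCA is near 0 in all PANDORA-seq libraries, in both genotypes.

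Nearly every 3′ end in PANDORA-seq stopped short of the terminal A. Of the mt-Tf reads of 15 to 42 nt that ended at the 3′ end, 212 (78.8%) ended at CC, 57 (21.2%) at C and 0 at CCA. Over all lengths this was 0 of 272 reads, which allows a share of up to 1.1%. Of the corresponding mt-Tv reads, 53.8% ended at CC, 32.997% at C, 10.002% at the last encoded base and 3.16% at CCA. In traditional-seq 84.6% of the mt-Tf 3′ reads and 68.98% of those of mt-Tv carried CCA, and by library the mt-Tv share was 62.9 to 75.8% against 1.15 to 4.75% in PANDORA-seq. Across the 22 tRNAs the median share ending at CCA was 0.197% (range 0 to 7.35%) in PANDORA-seq and 58.5% (13.4 to 97.5%) in traditional-seq, so the missing A was general. Among all reads of 15 to 42 nt in a library, whatever their origin, 5.57 to 15.5% ended in A in PANDORA-seq and 12.3 to 17.8% in traditional-seq, and the part of adaptor trimming or of the treatment in this was not tested.

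The ends of mt-Tv reads lay at different positions in the 2 protocols. In PANDORA-seq 8.33 to 60.8% of mt-Tv reads (median 42.5%) ended in the anticodon loop, against 0.502 to 4.63% (median 1.73%) in traditional-seq, and 10.6 to 39.0% (median 22.5%) started there, against 1.55 to 8.26% (median 4.65%). Of the 5′ fragments of mt-Tv in PANDORA-seq, 72.1 to 97.0% (median 89.7%) ended within the loop, so that they covered the 5′ arm of the tRNA up to the loop. The most frequent ends were base 34 (19.0 ± 8.00% of mt-Tv reads) and base 32 (18.3 ± 7.62%), and the most frequent starts were bases 1, 3 and 34. In traditional-seq 87.4 to 98.4% of mt-Tv reads (median 93.1%) lay wholly 3′ of the anticodon, against 9.96 to 43.7% (median 17.0%) in PANDORA-seq, with ends at base 72 (32.8 ± 9.92%) and base 65 (17.0 ± 9.20%).

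For mt-Tf the anticodon loop was an end in both protocols, at 0 to 52.5% of reads (median 23.05%) in PANDORA-seq and 12.7 to 40.8% (median 32.97%) in traditional-seq. These traditional-seq reads ended mainly at base 35 (26.9 ± 7.71% of all mt-Tf reads), the last base of the anticodon, and began inside the molecule, as in the fragment 12-35 with 2.17 RPM. Reads lying wholly 5′ of the anticodon made up 8.65 to 81.8% of mt-Tf in PANDORA-seq and 0.177 to 3.60% in traditional-seq. The mean length of reads of 15 to 42 nt rose from 20.3 ± 1.02 to 25.7 ± 2.14 nt for mt-Tf and from 19.95 ± 1.45 to 29.6 ± 1.08 nt for mt-Tv (adjusted p = 1.35e-05), and it was called higher for all 22 tRNAs.

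**Figure D3:**
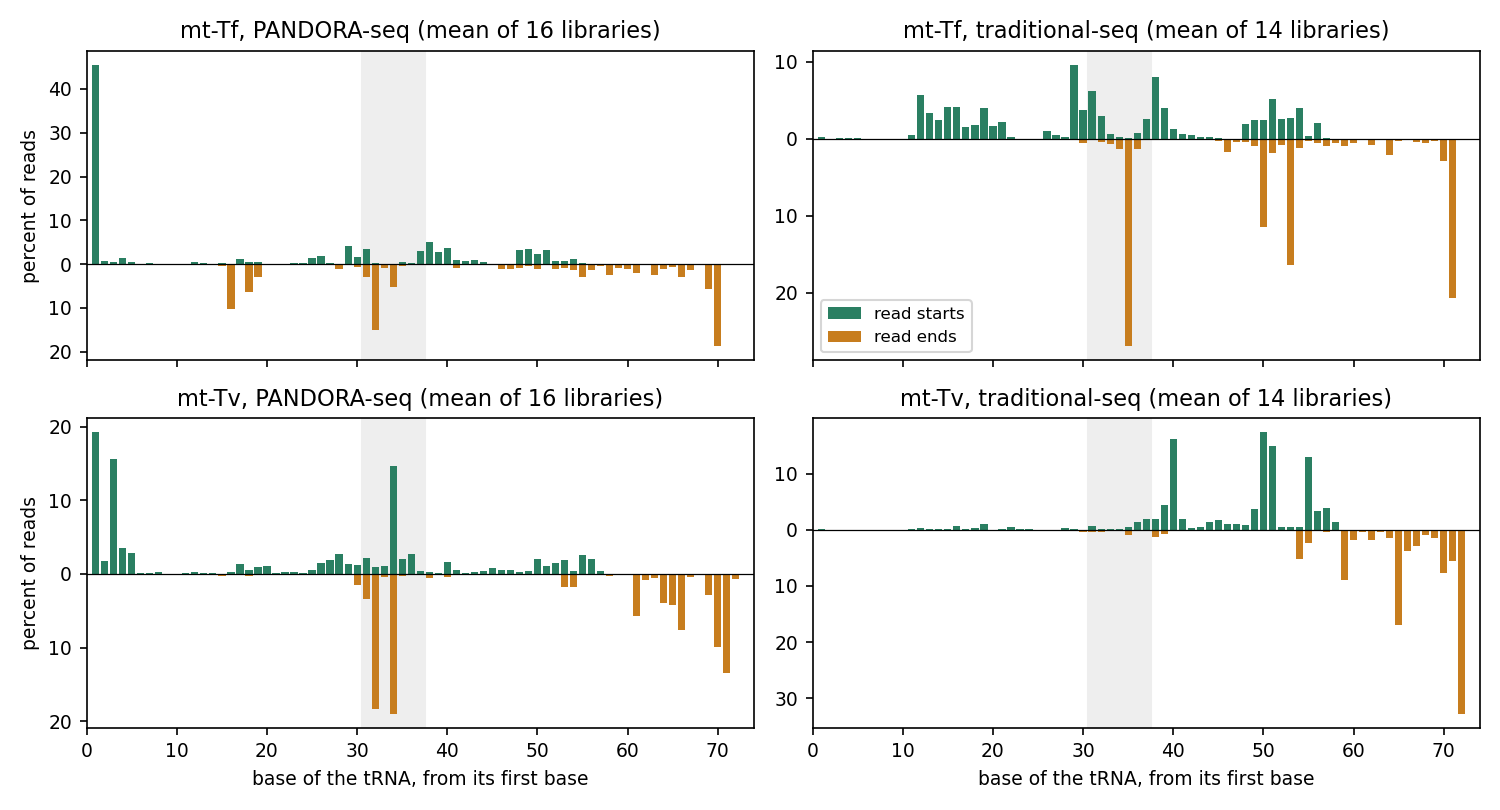
Percent of the tRNA's reads that start (upward) and end (downward) at each base, counted from the first base of the tRNA with CCA, as the mean over the libraries of each protocol, with the anticodon loop shaded. Starts at base 1 and ends at bases 32 and 34 mark PANDORA-seq, and ends at base 72 of mt-Tv or base 71 of mt-Tf mark traditional-seq.

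Mismatches at base 9 separated the protocols in mt-Tv as well. Among reads of at least 25 nt with at most 1 mismatch, in which base 9 lay at least 2 nt from the ends, 381 of 544 traditional-seq reads (70.0%, exact 95% interval 66.0 to 73.9%) differed from the reference A. The change A9T made up 328 of these reads, A9G 38 and A9C 15, with positions counted from the first base of the tRNA. By library the mismatched share was 27.6 to 100% (median 76.1%) in traditional-seq and 0.421 to 13.5% (median 1.70%) in PANDORA-seq, without overlap. The traditional-seq shares rested on 3 to 110 covering reads per library, and those of 100% on 3 and 13. In PANDORA-seq 1523 to 25368 reads per library covered base 9. The highest PANDORA-seq share belonged to WT replicate 6. The 544 covering reads compare with 226982 mt-Tv reads matched in that protocol, most of them 3′ of the anticodon, whereas base 9 lay inside the most abundant PANDORA-seq fragments. Over the 68 positions of mt-Tv with at least 50 covering reads, base 9 included, the median mismatched share was 0.158% in traditional-seq and 0.253% in PANDORA-seq. In PANDORA-seq 2 positions exceeded 2%, base 10, mainly as G10A (2.19% of covering reads), and base 41, as G41C (0.961%) and G41T (0.998%). For mt-Tf base 9 was covered by too few traditional-seq reads to compare, with A9T in 1 read, 25% of those covering it, and in 3 reads (0.787%) in PANDORA-seq. Intervals from reads cover counting error only, since reads without molecular identifiers are not independent molecules.

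**Figure D4:**
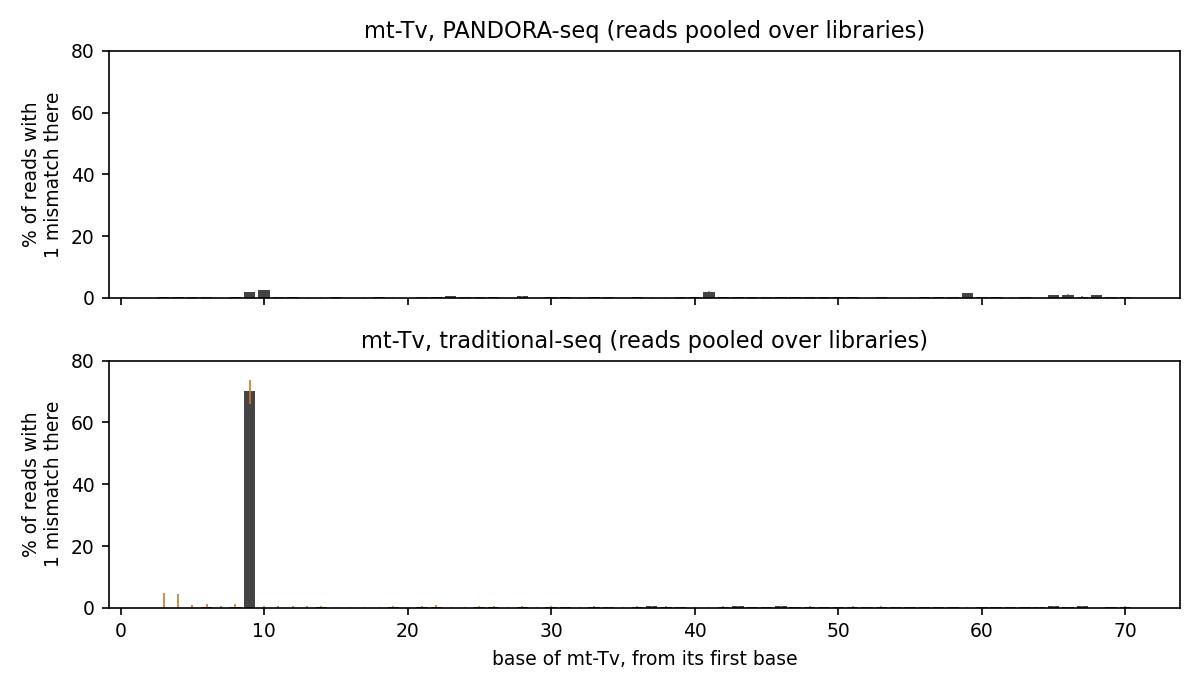
Percent of covering reads that differ from the reference at each base of mt-Tv in each protocol, counted from the first base, with exact 95% intervals, for positions with at least 50 reads. Base 9 of mt-Tv in traditional-seq, at 70.0%, stands above every other position drawn.

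Reads that run across a tRNA boundary hold sequence of both neighbours. Whether some come from nuclear copies of mitochondrial sequence was not tested. With at least 5 nt required on each side, mt-Tv and 16S were joined in 2190 PANDORA-seq reads, 0.264% (exact 95% interval 0.253 to 0.275%) of the reads that crossed, ended or started at that boundary, and in 21 traditional-seq reads, 0.00801% (0.00496 to 0.0122%). By library the share was 0.0935 to 0.505% in PANDORA-seq and 0 to 0.0376% in traditional-seq. These shares, and those of the other boundaries below, took reads of all lengths, up to 45 nt in PANDORA-seq and 42 nt in traditional-seq. A frequent crossing read is shown because it holds both sides of the boundary, with tRNA bases in lower case and 16S bases in capitals.
mt-Tv to 16S, 23 and 20 nt: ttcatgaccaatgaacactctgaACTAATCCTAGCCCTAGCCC
It had 113 reads in 15 PANDORA-seq libraries and carries no CCA between the last encoded base and 16S. At 43 nt it is longer than any traditional-seq read. Relative to mt-Tv reads, on reads of 15 to 42 nt, the mean log2 ratio of crossing reads by library was 5.92 higher in PANDORA-seq (−7.52 ± 1.33 against −13.45 ± 1.48, SD, n = 16 and 14, permutation test adjusted p = 1.35e-05). In traditional-seq only 8 of 14 libraries had crossing reads, at most 6 each, so its mean depends on the 0.5 reads added to each count. The mt-Tv reads were also longer in PANDORA-seq, and the part of read length in this ratio was not tested. Pooled over libraries and all lengths, PANDORA-seq had 67.0 crossing reads per 10000 mt-Tv reads, against 0.925.

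The other boundaries of the cluster were crossed by fewer reads than the mt-Tv to 16S boundary, apart from the far end, but not always by a smaller share, since fewer reads ended or started at them. At the 12S to mt-Tv boundary 20 PANDORA-seq reads crossed (0.0275%, 0.0168 to 0.0425%, and 0 to 0.541% by library with a median of 0.0102%), beside 64566 that started at base 1 of mt-Tv, and 3 traditional-seq reads (0.191%). Of the 20, 9 came from WT PANDORA-seq replicate 6, and without it the share was 0.0155% (11 of 71042 reads). At the mt-Tf to 12S boundary, where any letter was accepted at the unannotated base, 17 PANDORA-seq reads crossed (0.552%, 0.322 to 0.882%), and 0 of 2214 traditional-seq reads, where a floor of 3 reads allows a share of up to 0.136% and the exact 95% interval reaches 0.166%. Pooled over libraries, the PANDORA-seq share at mt-Tf to 12S was above the 0.264% at mt-Tv to 16S, but the median by library was 0% at the former and 0.240% at the latter, and this difference was not tested. The 16S to mt-Tl1 boundary was crossed by 6607 PANDORA-seq reads (21.9%, and 10.2 to 38.8% by library) and 63 traditional-seq reads (1.18%). The most frequent sequences among these PANDORA-seq reads, with 1100, 1045 and 816 reads, held only 6 nt of mt-Tl1, just above the length required. In traditional-seq the most frequent, with 18 reads, held 7 nt. The most frequent mt-Tv to 16S sequence in PANDORA-seq held 23 nt of mt-Tv and 20 nt of 16S. How the 16S to mt-Tl1 share changes when more of mt-Tl1 is required was not tested. Shares are of reads, not molecules, and how well each protocol captured the reads that end or start at a boundary was not tested.

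Between genotypes the levels of both tRNAs differed by less than the spread between libraries. In edgeR's quasi-likelihood test over 1122 RNAs in PANDORA-seq, in which 3.74% were called lower in AD and 0.535% higher (adjusted p under 0.05, more than 2-fold), neither mt-Tf nor mt-Tv was called. The log2 fold change of AD over WT was −0.10 (SE 0.34, adjusted p = 0.908) for mt-Tf and 0.10 (SE 0.29, adjusted p = 0.901) for mt-Tv. Of their neighbours, 12S had 0.91 (SE 0.54, adjusted p = 0.426) and mt-Tl1 −0.69 (SE 0.18, adjusted p = 0.0263), below the fold limit. In traditional-seq, where 0% of 673 RNAs were called in either direction, mt-Tf had −0.28 (SE 0.32) and mt-Tv 0.27 (SE 0.34), both with an adjusted p of 0.999.

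The ratios to rRNA did not separate WT from AD either. In PANDORA-seq the log2 ratio of mt-Tf to 12S differed by −0.67 (adjusted p = 0.575), that of mt-Tv to 12S by −0.44 (adjusted p = 0.726) and that of mt-Tv to 16S by 0.14 (adjusted p = 0.907) by exact two-sided permutation of the 8 WT and 8 AD libraries. The mt-Tv values had no stable direction, since with only the adjoining 100 nt of rRNA they were 0.36 to 12S and −0.31 to 16S, and the value to 16S was −0.34 on reads of 15 to 30 nt and −0.25 on those of 15 to 40 nt. Without AD replicate 7, the mt-Tf to 12S difference was −0.27 and the mt-Tv to 12S difference −0.05, and over all libraries left out in turn the mt-Tf value ran from −0.94 to −0.27. Crossing reads of the mt-Tv to 16S boundary relative to mt-Tv differed by −0.49 (adjusted p = 0.726). In all, 2 of the 21 measures of the 2 tRNAs were called between genotypes in PANDORA-seq, both of them lower in AD, beside 14.9% of 202 measures of all mitochondrial tRNAs called lower and 2.48% higher. Of 19 measures in traditional-seq, none was called and none had an unadjusted p under 0.05 in the exact permutation test, with 0% of 180 called in either direction. The same held for the 19 tests of whether the AD effect differed between the protocols, by shuffles of genotype within protocol on reads of 15 to 42 nt, in which all adjusted p were 0.992 and 0% of 180 measures were called.

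Both called measures were the share of the longest reads. In WT PANDORA-seq libraries 3.16 to 18.2% of mt-Tv reads (median 12.01%) were 43 to 45 nt long, and in AD libraries 0.540 to 4.53% (median 1.72%), with WT replicates 4 and 7 below the highest AD library. The mean fell by 9.004 percentage points, from 10.95 ± 5.11 to 1.95 ± 1.46% (SD, n = 8 each, exact permutation adjusted p = 0.0105). For mt-Tf the share fell from 6.64 ± 5.36 to 0.328 ± 0.690% (adjusted p = 0.0205), on 0 to 8 such reads per WT library and 0 or 1 per AD library. The share was called lower in 16 of the 22 mitochondrial tRNAs and higher in none, with a median difference of −8.34 percentage points. In all reads of a library, 11.2 to 21.5% (median 15.1%) were 43 to 45 nt in WT and 2.13 to 10.7% (median 4.25%) in AD, without overlap, so the loss of long reads was not particular to these tRNAs. Whether it arose in the tissue or at gel cutting and library construction was not tested. In RPM, mt-Tv reads of 43 to 45 nt ranged from 6.32 to 35.9 in WT and from 0.473 to 9.28 in AD, while those of 15 to 40 nt ranged from 105 to 405 and from 76.8 to 502.

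**Figure D5:**
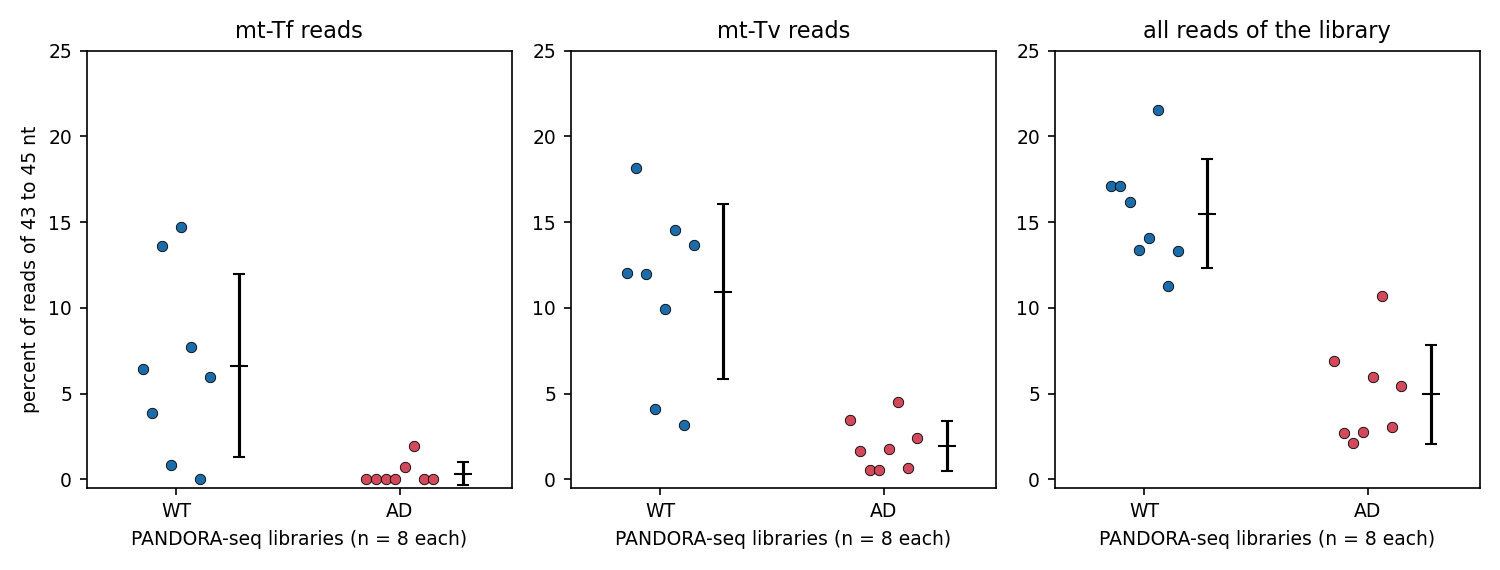
Share of reads of 43 to 45 nt (percent) in each PANDORA-seq library, for mt-Tv, for mt-Tf and for all reads of the library, in WT and AD, with mean ± SD. All 8 AD libraries lie below all WT libraries for all reads, whereas WT and AD overlap for mt-Tv and mt-Tf.

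The mt-Tv sequences called between genotypes under the filter used here were of the same length class. Of 23675 distinct sequences tested in PANDORA-seq with edgeR, 4.66% were called lower and 0.161% higher in AD. Among these, 164 were from mt-Tv and none from mt-Tf, whose sequences were too rare to pass the filter on low counts. Lower in AD were 11 mt-Tv sequences, all of 43 to 45 nt, and none was higher, whereas with a looser filter on low counts 19 were lower and 1 higher. All 14 tested sequences of that length had negative log2 fold changes, with a median of −2.23, and over all RNAs 45.7% of 2171 tested sequences of that length were called lower. Of the 140 mt-Tv sequences of 15 to 40 nt, none was called, 6 had an unadjusted p under 0.05, all 6 higher in AD, and the median log2 fold change was 0.33, beside 0.22 over the 19464 sequences of that length. Of the 10 of 41 to 42 nt, none was called, 8 had negative log2 fold changes (median −0.32), and 3 had an unadjusted p under 0.05, none of them higher in AD.

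The smallest adjusted p belonged to the fragment from base 27 to 71, printed with its anticodon and added CC in capitals because it spans the anticodon loop uncut.
mt-Tv 27-71: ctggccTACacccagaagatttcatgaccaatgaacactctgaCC
It ranged from 0.874 to 6.88 RPM (median 3.33) in WT and from 0 to 0.656 (median 0.186) in AD PANDORA-seq libraries, without overlap, and had a log2 fold change of −3.95 (SE 0.59, edgeR adjusted p = 0.000186). The other 10 lay between bases 17 and 71, with log2 fold changes of −3.20 to −1.48. In contrast, the 5′ fragment mt-Tv 1-32 ranged from 3.25 to 71.4 RPM (median 20.9) in WT and from 2.77 to 78.7 (median 34.5) in AD (log2 fold change 0.49, SE 0.60, adjusted p = 0.752). In traditional-seq 15 mt-Tf and 123 mt-Tv sequences were among 4895 tested, of which 0% were called, and none of the members' sequences had an unadjusted p under 0.05 in edgeR's quasi-likelihood test, with 1 of mt-Tv in DESeq2 and 1 in the likelihood ratio test.

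Fragment types did not separate the genotypes. In PANDORA-seq the 5′ share of mt-Tf was 44.1 ± 15.6% in WT and 46.9 ± 22.2% in AD (adjusted p = 0.907), and that of mt-Tv 17.2 ± 6.70% and 21.2 ± 7.02% (adjusted p = 0.527, SD, n = 8 each, exact permutation test). The mt-Tv mean length was 31.3 ± 1.41 nt in WT and 29.8 ± 0.784 nt in AD (difference −1.48, adjusted p = 0.105), and on reads of 15 to 40 nt the difference was 0.068 nt.

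Over the 16 PANDORA-seq libraries, the level of mt-Tf was most like that of mt-Tv among 356 RNAs with a mean of at least 10 RPM (Spearman's rho 0.897), then mt-Tl2, another leucine tRNA (0.877), and the miRNA hairpin Mir132 (0.871). Most like mt-Tv were Mir221 (0.903), Mir23b (0.865) and mt-Tl2 (0.865), among 355 RNAs. The neighbouring rRNAs were less alike, with rho of 0.353 (12S) and 0.341 (16S) for mt-Tf and 0.468 and 0.309 for mt-Tv. All these values share library depth and composition and are given as a description.

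Markers of the labelled tissue were found in every library, where 11 hairpins of brain miRNAs summed to 88727 to 295486 RPM in traditional-seq and 1686 to 6933 RPM in PANDORA-seq. Muscle miRNA hairpins summed to 268 to 7877 and 0.862 to 5.06 RPM, and the liver miRNA Mir122 was at 13.6 to 755 and 43.2 to 258 RPM. Erythroid hairpins were at 28.5 to 270 and 6.94 to 14.7 RPM, those of blood cells at 4.74 to 58.1 and 0.643 to 1.45, and Mir375 of the pancreas and pituitary at 10.6 to 53.5 and 6.34 to 143. For every list the WT and AD ranges overlapped in both protocols, and the part of other tissues in the results was not tested.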

How the data were processed

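The authors deposited, for each of 30 small-RNA libraries, a table of distinct read sequences and their read counts after adaptor trimming, with no normalization (counts). The submitters' processing notes name mm39, while all coordinates here are those of GRCm38. Tools are given by the study as SPORTS1.1 and edgeR. No column was left unmapped (0).

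Each whole sequence was matched without mismatch, in sense, to 6125 reference RNAs (GENCODE vM21, GRCm38), with CCA added to tRNAs. Sequences that also occurred in another transcript held 1.03% (PANDORA-seq) and 3.71% (traditional-seq) of mt-Tf reads and 0.363% and 5.66% of mt-Tv reads. Levels were reads per 1000000 of all reads (RPM). Counts per RNA and per distinct sequence were tested with edgeR 4.0.16 (R 4.3.3; TMM, filterByExpr with a minimum count of 10, glmQLFit), and calls needed an adjusted p under 0.05 with more than a 2-fold change. Per-library measures of all 22 mitochondrial tRNAs were compared by permutation (Python 3.11.15, NumPy 2.4.6, SciPy 1.17.1), exact between genotypes and by 100000 shuffles between protocols, with 0.5 reads added in log ratios and Benjamini-Hochberg adjustment over all measures. Figures were drawn with matplotlib 3.10.9.

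On simulated data, the match returned every planted sequence, none of which was shorter than 20 nt. In each fit 200 features were changed 16-fold, and smaller changes were not simulated. Changed features that did not pass the filter on low counts were not tested. The fits per RNA called 183 of 183 tested changed RNAs in PANDORA-seq and 173 of 173 in traditional-seq. The sequence fits called 140 of 146 and 152 of 153. Unchanged features called were 3 and 5 in the fits per RNA and 1 and 5 in the sequence fits.

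The members and lists were chosen with earlier results of these data known. Named sequences were the most abundant of each fragment type and protocol and the called sequence of smallest adjusted p, of which those the text turns on are printed. The mt-Tv to mt-Tf ratio, the boundary read, the boundary shares without 1 library, the anticodon-loop shares and the 3′ end classes were chosen after values were seen. Replicate libraries are numbered in the labels, and the study counts 1 mouse for each library of a protocol, with WT littermates; whether a mouse gave libraries to both protocols is not given in the sources used here. No 2 libraries of the same group agreed within counting noise. Alternatives were other tests (edgeR likelihood ratio, DESeq2 1.42.0), normalizations, filters, length ranges and rRNA windows, 1 mismatch, a replicate block and leaving out each library.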

Additional observations from a re-analysis of the deposited data

Results flagged for a closer look

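Of 62 groups and measures of mt-Tf and mt-Tv examined, 5 held a library whose gap to its nearest neighbour was large for the group's range. The limit used gives about 1 in 20 by chance only for normally distributed values. Several of these measures were shares near 0 or shares of the same reads, so that rate need not hold for them. WT PANDORA-seq replicate 6 stood apart in both 3′ classes of mt-Tv, with 55.85% of reads lacking the full CCA (next highest 31.36%) and 1.692% carrying it (next 1.012%). It also had the lowest 5′ share of mt-Tv, 2.42%, and the highest mismatched share at base 9, 13.5%. AD PANDORA-seq replicate 6 had 1.923% of mt-Tf reads at 43 to 45 nt (next 0.7042%), which is 1 read. The 5′ share of mt-Tv was 0.4606% in WT traditional-seq replicate 4 (next 0.1037%) and 0.5973% in AD traditional-seq replicate 2 (next 0.135%).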

How the results depend on the processing

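Between protocols, the calls on levels, rRNA ratios and fragment shares of mt-Tf and mt-Tv were kept without any library, in WT alone, in AD alone and with the libraries of both protocols paired by their shared file code as a replicate block. Under other settings the exceptions were mt-Tv per matched read (−0.40, adjusted p = 0.148) and, with distinct sequences counted once, the mt-Tv share without full CCA (1.67, adjusted p = 0.0591) and the mt-Tv internal share (−3.45, adjusted p = 0.0044).

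Between genotypes in PANDORA-seq, 11 mt-Tv sequences were lower in AD and 0 higher. With a loose filter these were 19 and 1, and with sequences of 15 to 40 nt only, 0 were lower, since all 11 are longer. Without 1 library they were 10 to 15. The mt-Tv fold change turned to −0.19 in a fit on reads of 43 to 45 nt alone, which scales to reads of that length. No such fit was run for mt-Tf, which had too few of those reads. Directions also turned, with no call, for mt-Tv to 12S with the adjoining 100 nt of rRNA (0.36), and for mt-Tv to 16S with that window (−0.31), on reads of 15 to 30 nt (−0.34) and of 15 to 40 nt (−0.25). They turned for the mt-Tv share without full CCA (0.663 on 15 to 40 nt, 0.108 with distinct sequences), internal share (0.343, distinct) and mean length (0.068, 15 to 40 nt). In traditional-seq they turned for the mt-Tf 5′ share from base 1 or 2 (−0.0609) and, with distinct sequences, for mt-Tf CCA (0.685) and the mt-Tv 5′ (−0.0696), CCA (−0.478), no full CCA (−0.512) and internal (1.06) shares. The cause of these turns was not tested.

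The fall in reads of 43 to 45 nt was called without any library, from −10.12 to −7.973 percentage points for mt-Tv and from −7.257 to −5.156 for mt-Tf. A replicate block, tested by exact sign flips, gave −9.00 (adjusted p = 0.0717) and −6.31 (adjusted p = 0.0986). In each same-numbered pair the mt-Tv share was lower in AD, so sign flips of these pairs could give no smaller p. For mt-Tf no pair was higher in AD, and replicate 7 had no such read in either genotype, which likewise left no smaller p. The lost calls therefore do not show a smaller difference. For same-numbered WT and AD libraries, the deviations of log2 RPM from the mean of their own group were correlated over RNAs. These correlations ran from −0.538 to 0.414 in PANDORA-seq (356 RNAs) and from −0.494 to 0.508 in traditional-seq (350 RNAs), in both directions. These values cannot tell whether the numbers pair the libraries. Per-RNA fold changes without 1 library ran from −0.357 to 0.087 (mt-Tf) and −0.108 to 0.287 (mt-Tv) in PANDORA-seq, and −0.027 to 0.373 (mt-Tv) in traditional-seq. The other ranges without 1 library that crossed 0, none of them called, were in PANDORA-seq −3.51 to 7.10 (mt-Tf 5′), −0.078 to 0.431 (mt-Tv to 16S), −5.39 to 0.367 (mt-Tv no full CCA) and −2.22 to 1.22 (mt-Tv internal). In traditional-seq they were −2.86 to 4.26 (mt-Tf CCA), −0.054 to 0.152 (mt-Tf 5′), −5.14 to 2.65 (mt-Tf internal), −0.061 to 0.297 (mt-Tv to 12S), −0.114 to 0.181 (mt-Tv to 16S), −2.74 to 2.57 (mt-Tv CCA), −0.060 to 0.074 (mt-Tv 5′) and −5.00 to 2.66 (mt-Tv internal).

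Depth limits mt-Tf most, with 11 to 142 reads per PANDORA-seq library. Exact matching leaves out reads changed at base 9, and reads over 42 nt exist only in PANDORA-seq.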
